A study of Mus musculus with 6 samples.

Results

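Ptgr1 and 9 other genes of antioxidant and detoxification enzymes were followed in embryonic hearts at E12.5, as labelled, of mice lacking the transcription factor Sp3 and of wildtype mice. Ptgr1 was chosen by its difference between knockout and wildtype intensities, having been among the few genes called lower in an earlier analysis of these same arrays, so that difference is a description with no test. The other 9, Nqo1, Gclc, Gclm, Hmox1, Srxn1, Txnrd1, Slc7a11, Gsta4 and Gstm1, are textbook targets or relatives of targets of the factor Nrf2 and were listed by function. They were chosen with earlier results of these data known, so the list is not blind to these arrays. All 10 genes were measured, by 21 probe sets annotated to 1 gene each, of 45037 probe sets and 18193 genes in all. Each of the 6 samples was the total RNA of 1 heart on 1 oligonucleotide array, with 3 labelled Sp3 knockout (a, b, c) and 3 labelled wildtype (a, b, c). Strain, sex and litter are not given in the sources used here. Their number limits the precision, and a p-value here covers only how far these hearts spread.

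Nrf2 (Nfe2l2) is a transcription factor that is held in the cytoplasm and handed to the proteasome by Keap1. Reactive compounds modify Keap1, Nrf2 then accumulates and pairs with small Maf proteins, and the pair binds antioxidant response elements in front of genes for glutathione synthesis, quinone reduction, thioredoxin reduction and heme breakdown. Ptgr1 is an NADPH-dependent reductase that inactivates prostaglandins and reduces reactive alkenals, and it also inactivates leukotriene B4, by oxidation. It is known as an inducible enzyme of this programme. Sp3 binds GC boxes, which are common in promoters.

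The 250 bases before the RefSeq start of 3 members are shown (GRCm38.p6, 5′ to 3′ on the gene's strand), because Ptgr1 had the widest gap between the groups and because Gclm and Srxn1 shared a pattern over the arrays. Capitals mark the GC box GGGCGG and the antioxidant response element core in the forms TGACNNNGC and TGAGNNNGC, each searched on both strands. No matches in these windows overlapped.
Ptgr1, chr4:58987079-58987328, minus strand: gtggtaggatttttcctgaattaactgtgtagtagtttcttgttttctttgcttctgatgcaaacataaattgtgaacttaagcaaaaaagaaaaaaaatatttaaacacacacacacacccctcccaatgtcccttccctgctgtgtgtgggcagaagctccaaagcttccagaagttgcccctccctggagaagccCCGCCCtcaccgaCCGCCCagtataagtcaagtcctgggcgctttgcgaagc
Gclm, chr3:122245307-122245556, plus strand: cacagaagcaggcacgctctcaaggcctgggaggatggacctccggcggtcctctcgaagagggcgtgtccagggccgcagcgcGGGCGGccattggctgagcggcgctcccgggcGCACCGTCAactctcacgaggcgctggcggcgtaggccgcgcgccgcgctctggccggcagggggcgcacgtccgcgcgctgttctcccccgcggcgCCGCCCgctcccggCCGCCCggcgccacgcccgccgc
Srxn1, chr2:152105274-152105523, plus strand: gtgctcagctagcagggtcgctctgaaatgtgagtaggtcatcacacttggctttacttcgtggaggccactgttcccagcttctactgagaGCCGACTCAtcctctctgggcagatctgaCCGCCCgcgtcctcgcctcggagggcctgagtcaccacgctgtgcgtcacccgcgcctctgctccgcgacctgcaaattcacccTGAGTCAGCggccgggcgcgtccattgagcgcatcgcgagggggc

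The Ptgr1 window held 2 GC boxes, beginning 52 and 39 bases before the start, and 0 matches to either core. The Gclm window held 3 GC boxes and 1 core, GCACCGTCA, which begins 134 bases before the start. The Srxn1 window held 1 GC box and 2 cores, one of which, TGAGTCAGC, begins 45 bases before the start. Txnrd1, which shared the pattern of Gclm and Srxn1 at 2 of its 3 probe sets, is not shown. Its window at start site 2 held 1 GC box and 1 core, and those at start sites 1 and 3 held 0 of either. Over the 7 members with a window in the table, 5 had a GC box in at least 1 of their windows and 4 had a core. Of all 32851 windows of this length, 32.7% held a GC box and 23% a core in either form. The member counts are by gene over 10 windows and these shares are by window, so they are not in the same unit. The members without a window were Gclc, Hmox1 and Gsta4. A match is a run of letters and not a measured binding site.

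Sp3 itself, on its only probe set, had every knockout array below every wildtype array, with a log2 difference of -1.27 (limma adjusted p = 0.00254). That call was lost without knockout a (limma adjusted p = 0.0665) and in limma without a variance trend (0.279), while the difference stayed between -1.37 and -1.20. Among 12 markers of heart muscle, the labelled tissue, Actc1 and Tnni1 were the brightest, at 81.6 to 509 and 109 to 202 over the 6 arrays. The ventricular factor Irx4 lay in the dimmest of 10 classes of level. Myh6, Myl2 and Nppa were dim as well, at 1.25 to 10.4, 2.81 to 11.7 and 6.45 to 17.6. The summed intensity of all 12 ran from 992 to 1020 over the knockout arrays and from 356 to 957 over wildtype. The 10 hepatocyte markers, led by Alb and Afp, summed to 42302 to 42666 (knockout) and 41890 to 49255 (wildtype). On average 10 of the 12 muscle markers were higher in knockout and 9 of the 10 hepatocyte markers lower. Liver transcripts were thus bright on all 6 arrays, which the tissue label does not name, and the samples are called hearts here only as labelled. Probe sets bind their targets unequally, so intensities are not on 1 scale between genes and these sums do not give the share of each tissue. The 8 erythroid markers, led by Tfrc and Klf1, summed to 12111 to 20527 (knockout) and 17056 to 23832 (wildtype), and all 8 were lower in knockout on average, with overlap. The 8 endothelial markers, led by Cldn5 and Tek, summed to 629 to 770 and 573 to 723. The 11 macrophage and leukocyte markers, led by Csf1r and Lyz2, summed to 1621 to 2454 (knockout) and 2858 to 3168 (wildtype), with 10 of 11 lower in knockout and 6 without overlap, as were 9.04% of all genes. No marker of these lists was listed at 0. A smaller share of a cell type and less RNA per cell cannot be told apart in these samples, and the part of cell makeup in the values that follow was not tested. Knockout c had the lowest level on the erythroid and leukocyte lists. The 3′ to 5′ ratios of the Gapdh and Actb control probe sets, a sign of RNA quality, were 0.85 to 0.933 and 1.29 to 1.35 over the 6 arrays.

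Ptgr1, read by 1 probe set (1417777_at), was at 40.9% of the wildtype level in the knockout hearts, as the ratio of geometric means. In the order a, b, c, which is kept below, its intensity was 176, 234 and 231 on the knockout arrays, against 513, 476 and 567 on wildtype. The highest knockout array lay well below the lowest wildtype array, and the gap between the groups was wider than the spread within either. The group means of log2 intensity were 7.73 ± 0.23 for knockout and 9.02 ± 0.13 for wildtype, each with its SD over n = 3 arrays, so the log2 difference was -1.29. This difference led to the choice of the gene, so no test is given for it. It stayed between -1.36 and -1.16 when any 1 array was left out. That range is a description too, since the same arrays led to the choice.

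**Figure D1:**
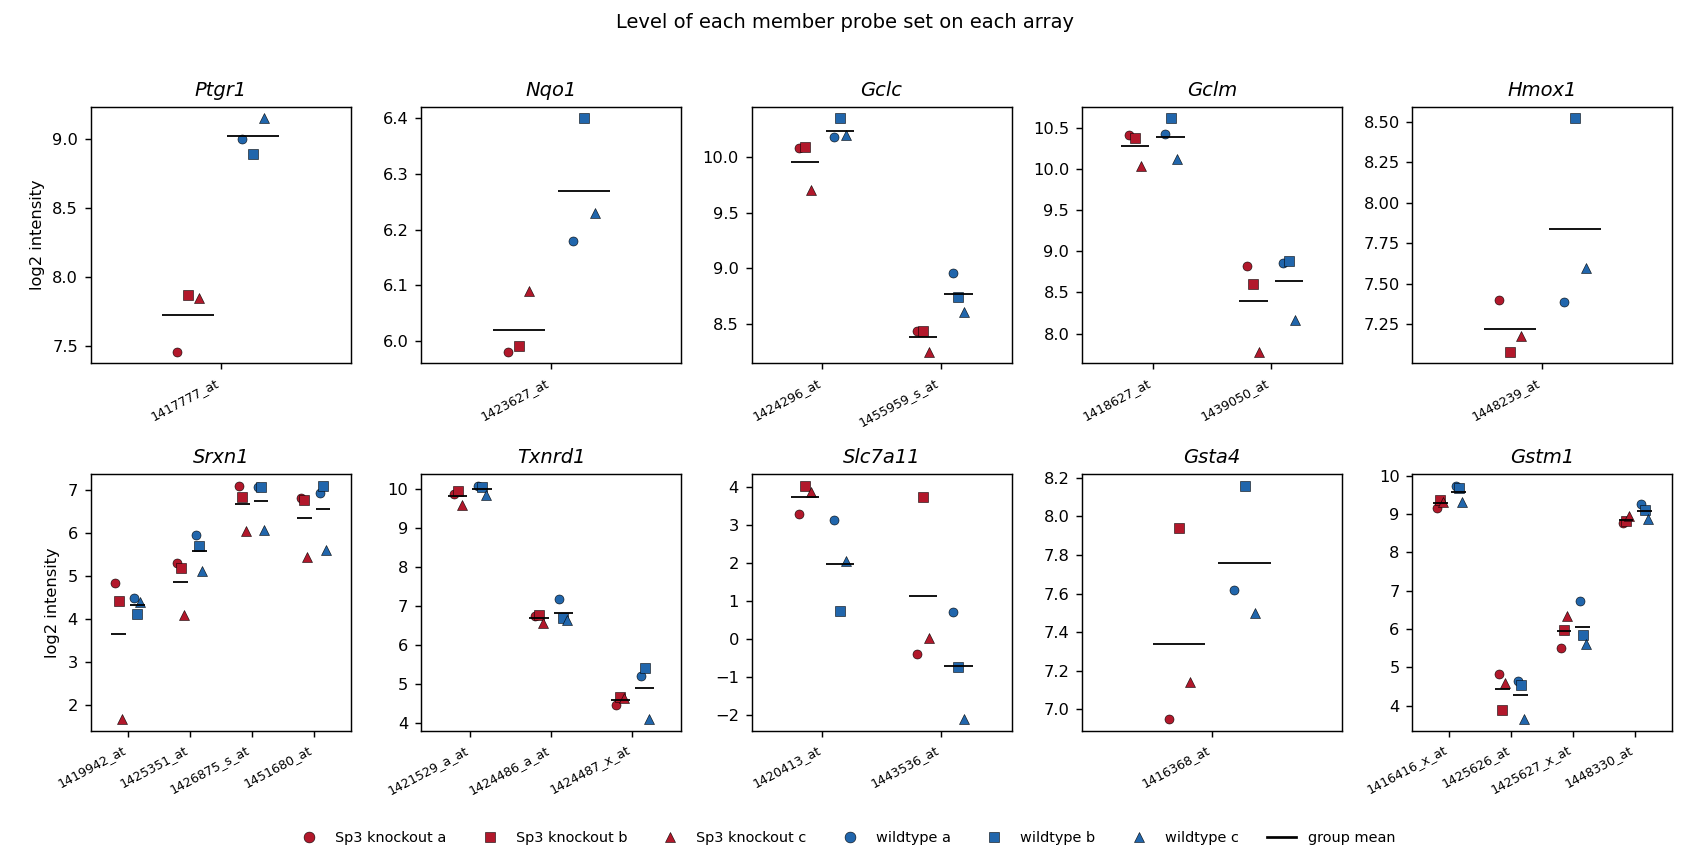
Log2 intensity of all 21 member probe sets, 1 panel per gene, with 1 point per array (red for Sp3 knockout, blue for wildtype, shapes for the letters a, b and c) and a bar at each group mean of 3 arrays. Vertical scales differ between panels. Ptgr1 shows the 3 knockout points at 7.46 to 7.87 and the 3 wildtype points at 8.89 to 9.15, while in most other panels the colours mix.

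The genes with the pattern closest to Ptgr1 over the 6 arrays, by Pearson r of log2 values, were Sdhd (r = 0.997), Capn7 (0.995), Mertk (0.994), Ola1 (0.994) and Ehhadh (0.993). They were taken from 19432 probe sets above the median level, of which 134 had an r of at least 0.95. The values are a description, since these genes all follow the split between knockout and wildtype arrays and come from the same RNA. Ehhadh, a peroxisomal enzyme of fatty acid oxidation, had a log2 difference of -1.45. Sdhd, an anchor subunit of succinate dehydrogenase, had one of -0.25, Mertk, a receptor that clears dying cells, one of -0.48, and Capn7, a calpain protease, one of -0.17. Ola1, an ATPase, had one of -0.41 and is the next coding gene to Sp3, with 0 coding genes between them in the annotation. Mertk also lies on the chromosome of Sp3, with 658 coding genes between them. Ptgr1, Sdhd, Capn7 and Ehhadh lie on other chromosomes than Sp3.

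Of the 20 probe sets of the other 9 members, 17 were lower in knockout on average and 3 higher, with a median log2 difference of -0.23. The same median was 0.02 over all 45037 probe sets, of which 47.8% were lower. None of the 20 passed limma at an adjusted p under 0.05, where 0.0311% of all probe sets did. At an unadjusted p under 0.05, 4 of the 20 were lower and 0 higher, where 3.89% of all probe sets were lower and 3.27% higher. The fit without a variance trend also called 0 of the 20. The groups did not overlap in 3 of the 20 with knockout lower and in 1 with knockout higher, where 6.89% and 6.15% of all probe sets did so. The 20 probe sets read only 9 genes, so they are not separate units. Both probe sets of Gclc are among the 4 and among the 3. Bright genes in general lay lower in knockout, at 66.1% of the genes above the 75th percentile of level. Without knockout c, 12 of the 20 were lower. The members were listed with earlier results of these data known, which limits what these shares can show.

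**Figure D2:**
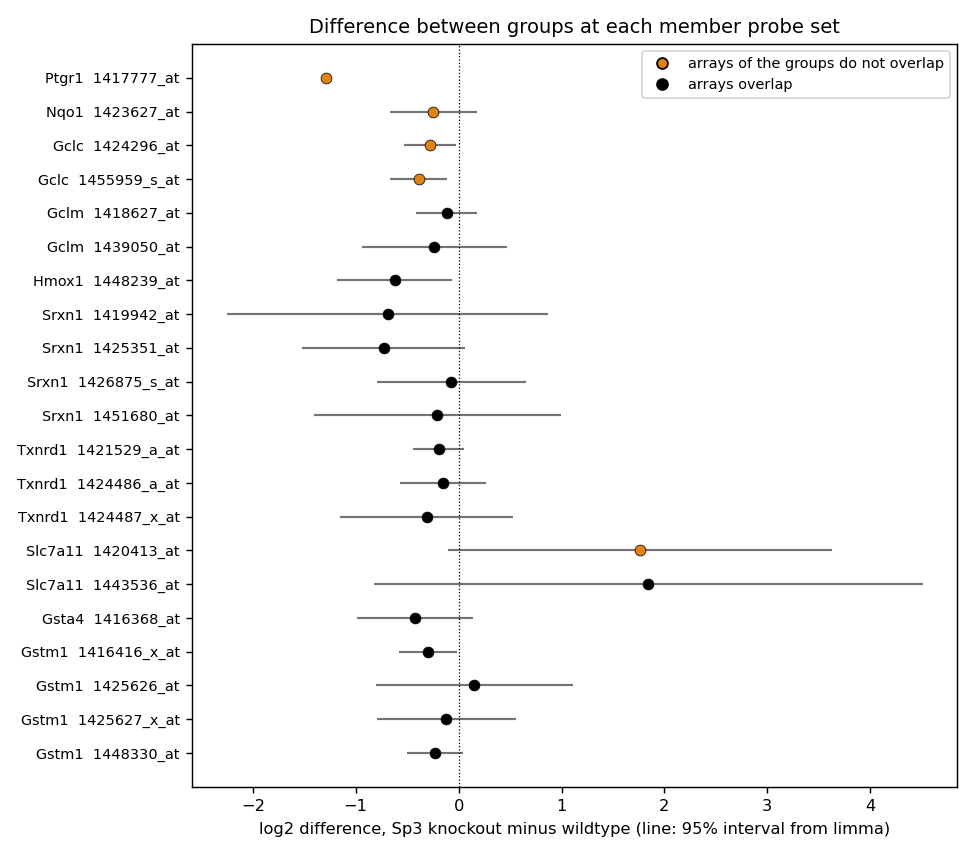
Log2 difference, Sp3 knockout minus wildtype, at each of the 21 member probe sets (3 arrays per group), with the 95% interval from limma as a line except for Ptgr1, for which no test is given. Orange points mark probe sets whose arrays do not overlap between groups. Ptgr1 is at -1.29, 17 of the other 20 points lie left of 0, and those of Slc7a11 lie to the right with wide intervals.

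Nqo1 reduces quinones to hydroquinones and is the classical reporter of Nrf2 activity. Its probe set (1423627_at) read 63, 63.7 and 68.2 on the knockout arrays, against 72.4, 84.4 and 75 on wildtype. All knockout arrays were below all wildtype arrays, by a small margin. The log2 difference was -0.25 (95% interval -0.67 to 0.18, limma adjusted p = 0.795).

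Gclc and Gclm are the catalytic and modifier subunits of glutamate-cysteine ligase, which makes the first and limiting step of glutathione synthesis. Gclc at 1424296_at read 1085, 1094 and 840 on the knockout arrays, against 1158, 1302 and 1177 on wildtype. At its other probe set (1455959_s_at) it read 348, 347 and 305 on the knockout arrays, against 497, 427 and 390 on wildtype. Both probe sets of Gclc therefore had every knockout array below every wildtype array, with knockout c lowest. The log2 differences were -0.28 (interval -0.53 to -0.03, limma adjusted p = 0.669) and -0.39 (interval -0.67 to -0.11, adjusted p = 0.608), neither of which passed. The first was -0.15 without knockout c. Gclm at 1418627_at read 1363, 1323 and 1042 on the knockout arrays, against 1368, 1564 and 1115 on wildtype. At 1439050_at it read 453, 387 and 220 on the knockout arrays, against 465, 472 and 287 on wildtype. The groups overlapped at both Gclm probe sets, and in each group the array lettered c was lowest. The log2 differences of Gclm were -0.11 and -0.24 and were 0.01 and 0.07 without knockout c, so their direction rests on that array.

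Slc7a11, the cystine carrier that feeds glutathione synthesis, was the member with higher values in knockout. At 1420413_at it read 9.8, 16.6 and 14.6 on the knockout arrays, against 8.77, 1.67 and 4.14 on wildtype. The groups did not overlap, but both lay in the dim part of the scale, in the class whose probe sets had a median residual SD of 1.28. The log2 difference was 1.76 (interval -0.10 to 3.63, limma adjusted p = 0.71) and 0.52 with 16 intensity units added before log2, so its size is not exact. The other probe set (1443536_at) lay in the dimmest of the 10 classes, read 0.769, 13.6 and 1.03 on the knockout arrays, against 1.66, 0.603 and 0.233 on wildtype, and overlapped.

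Txnrd1, the cytosolic thioredoxin reductase, had 3 probe sets. The brightest (1421529_a_at) read 950, 991 and 784 on the knockout arrays, against 1100, 1069 and 936 on wildtype. Knockout a and b lay between the wildtype arrays, and only knockout c lay below them all. Its log2 difference was -0.19 (interval -0.44 to 0.05, limma adjusted p = 0.742). The others differed by -0.15 (1424486_a_at) and -0.31 (1424487_x_at) with overlap. The first was 0.03 without wildtype a, and the second ran from -0.71 without wildtype c to -0.06 without wildtype b.

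Srxn1, sulfiredoxin, restores overoxidised peroxiredoxins and is among the most inducible targets of Nrf2. At 1451680_at it read 113, 110 and 43.4 on the knockout arrays, against 123, 138 and 49.3 on wildtype. At 1426875_s_at it read 138, 116 and 66.7 on the knockout arrays, against 135, 135 and 67.1 on wildtype. At both, the arrays lettered c stood far below the other 4, whatever the genotype, and the genotypes overlapped. At 1425351_at it read 39.8, 36.3 and 17.1 on the knockout arrays, against 61.7, 52.4 and 35 on wildtype, with a log2 difference of -0.73 (interval -1.52 to 0.06, limma adjusted p = 0.717) that was -0.35 without knockout c. The dimmest (1419942_at) read 3.21 in knockout c and 17.4 to 28.7 elsewhere. The differences of the other 3 probe sets were -0.07, -0.21 and -0.69 and were 0.24, 0.25 and 0.29 without knockout c. The direction of the first 2 also turned without wildtype b, to 0.10 and 0.07, and that of the first without wildtype a, to 0.10.

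**Figure D3:**
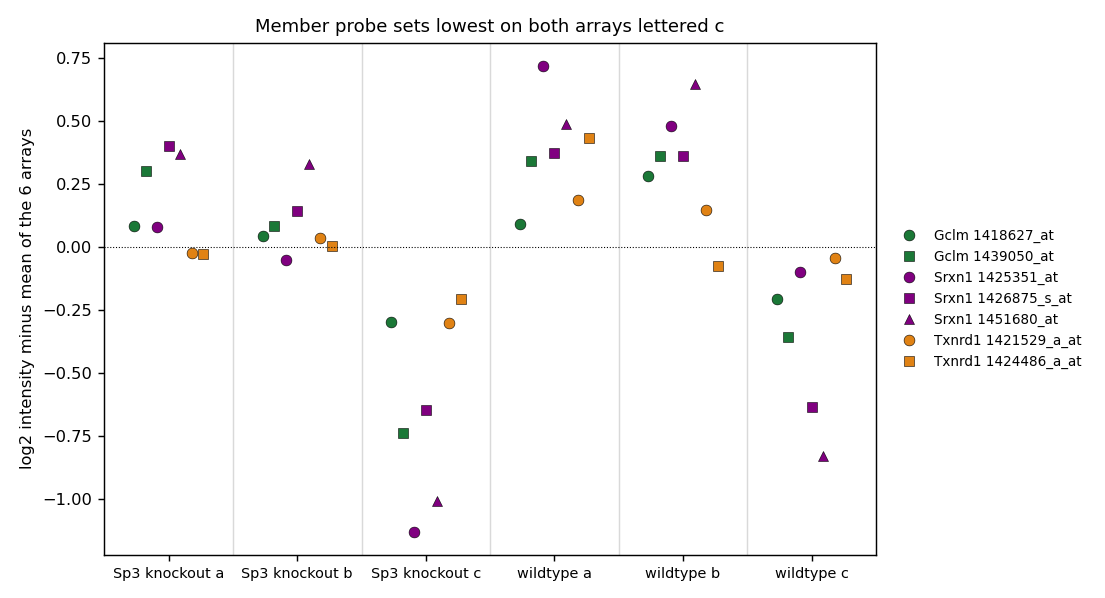
Log2 intensity minus the mean of the 6 arrays, by array, for the 7 member probe sets that were lowest on knockout c and wildtype c, with colours for genes and shapes for probe sets. The points of both arrays lettered c lie below 0 and those of wildtype a and b mostly above it. Replicates have no order along the axis.

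In 7 of the 21 member probe sets both arrays lettered c lay below the other 4 arrays, a pattern picked after the values were seen. They were the 2 probe sets of Gclm, 3 of Srxn1 and 2 of Txnrd1. The same held for 6.58% of all probe sets and for 15 of 92 other pathway genes, and several of the 7 read the same transcript. Over probe sets above the median level, the deviations of knockout c and wildtype c from their group means had a correlation of 0.436, so these arrays moved together beyond the members. The labels do not say what the letters stand for. The part of the letter in these values was not tested.

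Hmox1, heme oxygenase, breaks heme into biliverdin, iron and carbon monoxide and is abundant in macrophages that take up red cells. Its probe set (1448239_at) read 169, 135 and 145 on the knockout arrays, against 167, 368 and 194 on wildtype. Wildtype b stood far above the others, and wildtype a lay within the knockout range. The log2 difference was -0.62 (interval -1.18 to -0.06, limma adjusted p = 0.672) and was -0.27 without wildtype b. Wildtype b also had the highest level of the 6 arrays on the erythroid list and on the leukocyte list, whose mean log2 levels, centred over the arrays, were 0.45 and 0.38 there. Their part in the Hmox1 value was not tested.

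Gsta4 and Gstm1 are glutathione S-transferases, which join glutathione to reactive compounds, and Gsta4 prefers products of lipid peroxidation. Gsta4 (1416368_at) read 123, 245 and 141 on the knockout arrays, against 197, 286 and 182 on wildtype. In both groups the array lettered b was highest, and the groups overlapped. The log2 difference was -0.42 (interval -0.99 to 0.14, limma adjusted p = 0.749). Gstm1 at 1448330_at read 435, 452 and 494 on the knockout arrays, against 618, 543 and 466 on wildtype, with overlap through wildtype c. At 1416416_x_at it read 569, 662 and 634 on the knockout arrays, against 858, 823 and 633 on wildtype. Their log2 differences were -0.23 and -0.30, with limma adjusted p of 0.732 and 0.68. The dimmer Gstm1 probe sets differed by 0.15 (1425626_at) and -0.12 (1425627_x_at). The first was -0.04 without knockout a and -0.16 without wildtype c, and the second was 0.10 without knockout a and 0.22 without wildtype a, so neither has a direction that holds over the arrays. Mu class genes are near-identical in sequence, and a probe set ending in _x_at can also read relatives, so the Gstm1 values may include other mu class transcripts.

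A further 9 lists held 103 other genes around these members, of which 92 were measured, each by its brightest probe set. These lists too were drawn up with earlier results of these data known, so the shares below are a description. On average 69 of the 92 were lower in knockout and 23 higher, with a median log2 difference of -0.15. Over all 18193 genes the median was -0.02, and 52.5% were lower. None passed limma over all probe sets, where 9 of 18193 genes (0.0495%) did. The groups did not overlap with knockout lower in 21 of the 92 (22.8%), against 9.04% of all genes and 15.4% of those above the 75th percentile of level, and with knockout higher in 2, against 6.02% of all genes. At an unadjusted p under 0.05, 21 were lower and 2 higher, against 5.51% and 3.2% of all genes. Of the 39 pathway genes above the 75th percentile of level, 34 (87.2%) were lower, where 66.1% of all such genes were. Leaving out any 1 array gave 65 to 74 of the 92 lower, and quantile normalization 70.

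**Figure D4:**
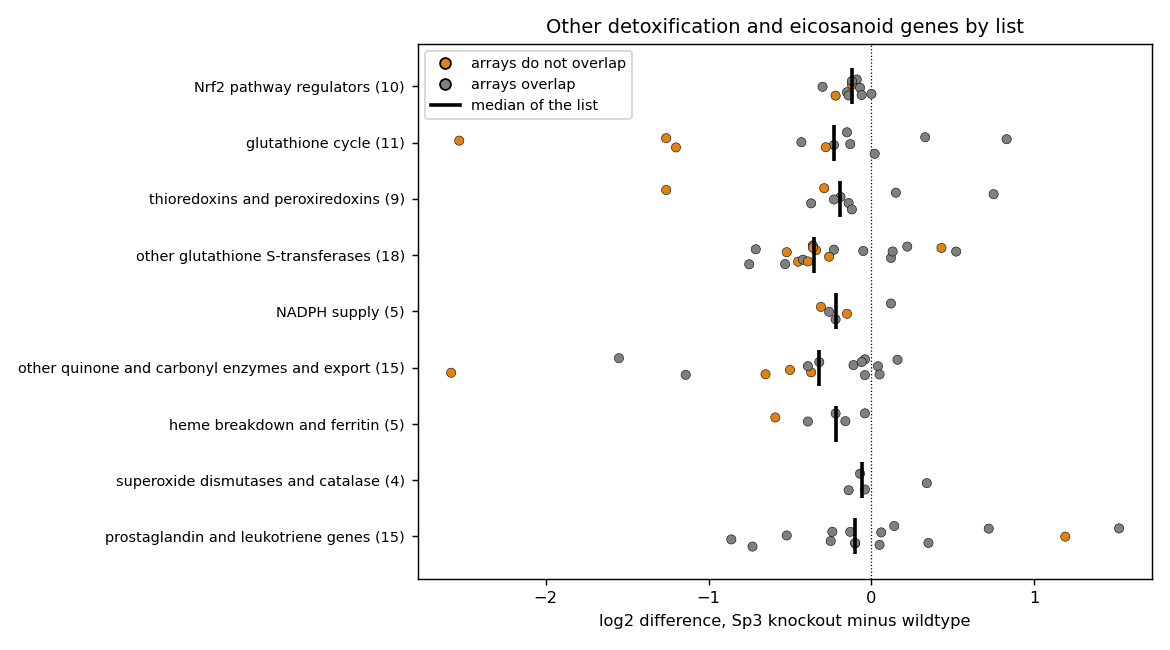
Log2 difference, Sp3 knockout minus wildtype, for the 92 other pathway genes in 9 lists, 1 point per gene, with the number of genes in brackets and a bar at each median. Orange points mark genes whose arrays do not overlap between groups. All 9 medians lie between -0.35 and -0.06, and the vertical scatter within a list carries no value.

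In the glutathione cycle 8 of 11 genes were lower, and the median difference was -0.23. Glrx, a glutaredoxin that removes glutathione from proteins, read 83.9, 105 and 79.2 on the knockout arrays, against 235, 267 and 152 on wildtype. Gpx7, a glutathione peroxidase of the endoplasmic reticulum, read 67.5, 48.1 and 52.6 on the knockout arrays, against 143, 108 and 134 on wildtype. In both genes all knockout arrays lay well below all wildtype arrays. Their log2 differences were -1.26 (limma adjusted p = 0.125) and -1.20 (adjusted p = 0.137), near that of Ptgr1 in size but short of the threshold. Glrx passed without wildtype c (limma adjusted p = 0.0276) and with array weights (adjusted p = 0.0354). Its limma adjusted p ran from 0.00402, with the letter as a replicate block, to 0.793 over the alternatives. The letters have no stated meaning, so that lowest value is not read as a call. Gpx2, an intestinal type of peroxidase, had a difference of -2.53 at a dim level, with knockout b at 20.3 next to 1.87 and 1.8, so no size is drawn from it.

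Among the other glutathione S-transferases 13 of 18 were lower, with a median of -0.35, and 6 did so without overlap, against 9.04% of all genes and 15.4% of those above the 75th percentile of level. Gstk1, the kappa class enzyme, was the 1 gene of the list without overlap in the other direction, at a log2 difference of 0.43 (limma adjusted p = 0.68). Gstm5 read 887, 934 and 762 on the knockout arrays, against 1232, 1234 and 1219 on wildtype, a log2 difference of -0.52 (limma adjusted p = 0.169). Gstp1, the pi class enzyme, read 2135, 2489 and 2293 on the knockout arrays, against 2978, 2809 and 2944 on wildtype, a difference of -0.34 (adjusted p = 0.35). The wildtype arrays of both genes lay close together and above every knockout array. Gstt1 differed by -0.39 (adjusted p = 0.64).

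Thioredoxins and peroxiredoxins were lower in 7 of 9, with a median of -0.19. Txn1, the cytosolic thioredoxin that Txnrd1 reduces, read 2943, 3096 and 2736 on the knockout arrays, against 3553, 3688 and 3448 on wildtype, a log2 difference of -0.29 (limma adjusted p = 0.437). Txnrd3, a thioredoxin glutathione reductase known from testis, read 28.3, 26.6 and 24.5 on the knockout arrays, against 56, 58.5 and 77.3 on wildtype, a difference of -1.26 (adjusted p = 0.231). Neither gene's groups overlapped. Txn2, the mitochondrial thioredoxin, differed by -0.37 with overlap.

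The list for the supply of NADPH, the fuel of these reductases, was lower in 4 of 5. Pgd, which makes NADPH, was the gene that was higher (log2 difference 0.12, limma adjusted p = 0.866). Idh1, cytosolic isocitrate dehydrogenase, read 683, 694 and 688 on the knockout arrays, against 987, 828 and 764 on wildtype (log2 difference -0.31, limma adjusted p = 0.64). Tkt and Taldo1, of the part of the pentose phosphate pathway that does not itself make NADPH, differed by -0.15 and -0.26. The list of quinone and carbonyl enzymes and export pumps was lower in 12 of 15, with a median of -0.32. Akr1b8, an aldo-keto reductase, read 126, 108 and 88.1 on the knockout arrays, against 150, 148 and 152 on wildtype (log2 difference -0.50, limma adjusted p = 0.634). Abcc4, an export pump that also carries prostaglandins, read 39.7, 47.8 and 54.1 on the knockout arrays, against 87.6, 64.1 and 70.5 on wildtype (log2 difference -0.65, adjusted p = 0.64). In these genes no knockout array reached a wildtype array, apart from Taldo1 and Pgd, which overlapped. Cbr3, a carbonyl reductase, read 1.22 to 4.86 in knockout and 12.3 to 16.3 in wildtype, a dim range in which the size of its difference is not exact.

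Genes of heme breakdown and ferritin were lower in 5 of 5, with a median of -0.22. Slc48a1, a heme transporter of lysosomes, read 210, 176 and 162 on the knockout arrays, against 243, 349 and 239 on wildtype (log2 difference -0.59, limma adjusted p = 0.541), with wildtype b highest as for Hmox1. Blvrb, a biliverdin reductase of red cells, differed by -0.39 and Hmox2, the constitutive heme oxygenase, by -0.22, both with overlap. Superoxide dismutases and catalase were lower in 3 of 4, with a median of -0.06 that was 0.01 after quantile normalization, and Sod2, Sod1 and Cat differed by -0.14, -0.07 and -0.04 with overlap.

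The regulators of the programme were lower in 9 of 10, with a median of -0.12, and 0 had an unadjusted p under 0.05. The list holds both Nrf2 with its partners and proteins that hold Nrf2 back, such as Keap1. The count therefore gives no direction for the programme. Nfe2l2, which encodes Nrf2, read 616, 605 and 493 on the knockout arrays, against 629, 622 and 739 on wildtype (log2 difference -0.22, limma adjusted p = 0.737). Its groups were separate by a narrow margin, 616 against 622. Mafk, a small Maf partner, differed by -0.30 with overlap and Cul3, the ligase scaffold that works with Keap1, by -0.12 without. Keap1 itself read 234, 243 and 186 on the knockout arrays, against 257, 285 and 199 on wildtype, with overlap.

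The prostaglandin and leukotriene list, the setting of the substrates of Ptgr1, was lower in 8 of 15 and higher in 7, with a median of -0.10 that was 0.05 without knockout b. Ptgr2, the closest relative of Ptgr1 on the list, read 213, 215 and 185 on the knockout arrays, against 207, 235 and 214 on wildtype. The groups overlapped, with a log2 difference of -0.10 (interval -0.40 to 0.20, limma adjusted p = 0.884). Hpgd, the dehydrogenase that precedes Ptgr1 in prostaglandin inactivation, differed by -0.10 (interval -0.45 to 0.25, adjusted p = 0.902). Alox5ap, the 5-lipoxygenase activating protein of myeloid cells, differed by -0.52 with overlap (adjusted p = 0.665). Ptgds and Ptgs2 differed by 1.19 and 1.52 in the dim range, where sizes are not exact.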

How the data were processed

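Single hearts, per the labels, were labelled in 1 cycle with biotin and hybridised to 1 array each. GCOS and RMA are the tools named in the submitters' processing notes, with neither's role nor the normalization stated in what was used here. As deposited, the table holds linear intensities, from 0.0562 to 12897. The log2 of each intensity was taken with no further normalization, and array medians were 22.5 to 26.7. The 64 control probe sets were left out.

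Tests used limma 3.58.1 in R 4.3.3 on 45037 probe sets, with lmFit, group as the only term, and eBayes with a variance trend and robust estimation, two-sided, Benjamini-Hochberg adjusted over all probe sets, called under 0.05. The trend was used because residual SD fell from 1.27 in the dimmest of 10 level classes to 0.125 in the brightest. The fit was also run on simulated data with independent noise on each array. Deviations of some real arrays were correlated, so that run does not show how the fit holds in these data. A list gene was read by its probe set of highest mean. Named were all members, Sp3, the 3 genes of smallest p in each list and the 5 genes most like Ptgr1. Of each marker list, the 2 brightest and those in the dimmest class were named. Also named were Ptgr2, Hpgd, Keap1, Mgst3, Gstk1, Pgd, Myh6, Myl2 and Nppa, picked after their values were seen. Members and lists were chosen with earlier results of these data known. Alternatives were no trend, quantile normalization, median centring, 16 units added, dim probe sets left out, array weights, a block by letter, averaging all probe sets of a gene, and each array left out. The deviations of arrays lettered alike had correlations of 0.01 (a), 0.308 (b) and 0.436 (c). The letters have no stated meaning and were not taken to pair the samples, and these values do not exclude pairing. By the platform annotation 34945 probe sets had 1 gene, 932 had several and 9160 had none.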

Additional observations from a re-analysis of the deposited data

How the results depend on the processing

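The log2 difference of Ptgr1 lay between -1.37 and -1.16 over all alternatives, a description, since the gene was chosen by it on these arrays. Probe sets called over all genes numbered 14, and 0 without a variance trend, 25 with array weights and 3 to 24 with 1 array left out. With the letter as a replicate block 258 were called, 206 of them lower. The members other than Ptgr1 had 0 calls under every alternative run. Pathway list genes had 0 calls, 1 with array weights (Glrx), 0 to 1 with 1 array left out, and 5 with the replicate block, which were Glrx, Gpx7, Gstm5, Mgst3 and Blvrb. Knockout b and knockout c correlated best with the wildtype array of their own letter, and knockout a did not. The letters have no stated meaning, so whether they pair the samples cannot be told. The calls with the replicate block are therefore not read as calls. Averaging all probe sets of each gene gave 0. Among member probe sets, 13 values in fits that left out 1 array had the opposite sign, none of them called. With 1 array left out, the log2 differences of the probe sets concerned ran from -0.25 to 0.01 and from -0.47 to 0.07 for Gclm, from -1.29 to 0.29, -0.40 to 0.24 and -0.67 to 0.25 for Srxn1, from -0.25 to 0.03 for Txnrd1, and from -0.16 to 0.42 and -0.34 to 0.22 for Gstm1. Of 256 member values under alternatives the other 243 kept their sign and side of the threshold. Medians of the lists moved beyond the spread between arrays in 5 cases, 3 of them for NADPH supply, and kept their sign in those. In 2 other cases a median changed sign within that spread, for superoxide dismutases and catalase from -0.06 to 0.01 under quantile normalization and for prostaglandin and leukotriene genes from -0.10 to 0.05 without knockout b. Dim probe sets such as those of Slc7a11 could not be fitted where probe sets below the median level were left out.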
